A study of Mus musculus with 10 samples.

Results

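This account covers the genes of 8 small leucine-rich proteoglycans, of the large proteoglycan versican and of hyaluronan synthase Has2 in OP9 stromal cells. The 10 genes were taken by symbol from a table of 26888 genes, in which each symbol matched 1 row. Small leucine-rich proteoglycans are secreted proteins built of leucine-rich repeats, several of which carry chondroitin, dermatan or keratan sulfate chains, and many of them bind collagen and influence how its fibrils assemble. Versican binds through its amino-terminal domain to hyaluronan, a long unsulfated sugar chain that hyaluronan synthases make at the plasma membrane. Stromal and skeletal connective tissue cells are a major source of these matrix molecules.

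RNA-seq was performed on 10 libraries of OP9, a stromal line from mouse calvaria, fetal by the sample labels and newborn by the published description, of the strain (C57BL/6xC3H)F2-op/op, which all libraries share. In 6 of them the cells had been reaggregated and kept for 48 h between liquid and gas, on nitrocellulose filters of 0.8 µm, and 4 came from flat cultures under medium, with no time given. Reaggregates 2, 4 and 6 received IL-3 at a labelled 200 μg/μl, and reaggregates 1, 3 and 5 did not. Flat cultures 2 and 4 carry the label of the de Bruijn lab, whereas flat cultures 1 and 3 carry no lab label, and the source of the cells in the reaggregates was not labelled. OP9 is 1 cell line and nothing in the labels shows that libraries of a group came from separate cultures, so that p-values measure only the spread between these libraries.

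Expression was given in RPM, the reads of a gene scaled to the total reads on genes of its library. The libraries held between 7.35 and 9.43 M reads on genes (M), estimated by taking the commonest RPM value above 0 as 1 read. At this depth 3 reads, taken as the detection floor, corresponded to between 0.318 and 0.408 RPM. Such floors account for counting error alone. Consecutive reaggregates (1 with 2, 3 with 4, 5 with 6), of which each second one received IL-3, were close to each other. Pearson's r across genes, which are not independent replicates, was 0.994 to 0.995 inside such a pair and 0.961 to 0.980 for other reaggregates, and pair averages were therefore examined beside the 6 separate libraries. In such bulk samples, fewer cells of a type and less RNA per cell cannot be told apart.

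Reaggregates were compared with flat cultures on log2(RPM + 0.5), a scale that understates the change of low genes, with limma for 16933 genes that exceeded 0.5 RPM in any library. Calls needed a change of 2-fold or more together with a Benjamini-Hochberg adjusted p no higher than 0.05. All 10 members passed the filter, but *Lum* passed only through the reaggregates and *Fmod* only through the flat cultures, so that neither could have been tested without being higher in that group. Expression of *Dcn*, *Aspn*, *Lum*, *Ogn* and *Omd* was higher in reaggregates, where 7.32% of all tested genes were called higher, and expression of *Fmod* was lower, where 6.53% were called lower. The same 5 genes lay above every flat culture in every reaggregate, as did 7.80% of tested genes, and 0 members lay below every flat culture in every reaggregate, against 11.4% of tested genes. With consecutive reaggregates averaged, the calls of *Dcn*, *Aspn*, *Omd*, *Ogn* and *Fmod* were lost at the same log2 fold changes. *Bgn*, *Prelp*, *Vcan* and *Has2* were not called. The median log2 fold change of the 10 members was 1.91, beside 0.04 for all tested genes. It was 1.12 against the flat cultures without the de Bruijn label (−0.05 for all tested genes) and 3.78 against those with it (0.13).

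The flat cultures were not uniform for these genes, and comparisons with each kind are given side by side, all of which share the 6 reaggregates. Against the 2 flat cultures without the de Bruijn label, 4 members (*Dcn*, *Aspn*, *Lum* and *Ogn*) were called higher, beside 3.70% of tested genes, and *Has2* was called lower, beside 6.17%. In an alternative chosen after seeing the data, with consecutive reaggregates averaged, the calls of *Dcn* (limma adjusted p = 0.141), *Aspn* (0.156), *Ogn* (0.0951) and *Has2* (0.0542) against these 2 cultures were lost. The log2 fold changes of these genes did not move. Against the 2 flat cultures with the label, 7 members were called higher, beside 15.2% of tested genes, and *Fmod* was called lower, beside 10.5%. The 7 comprised the 5 genes above together with *Vcan* and *Has2*. The label and anything else that sets these cultures apart cannot be told apart.

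**Figure D1:**
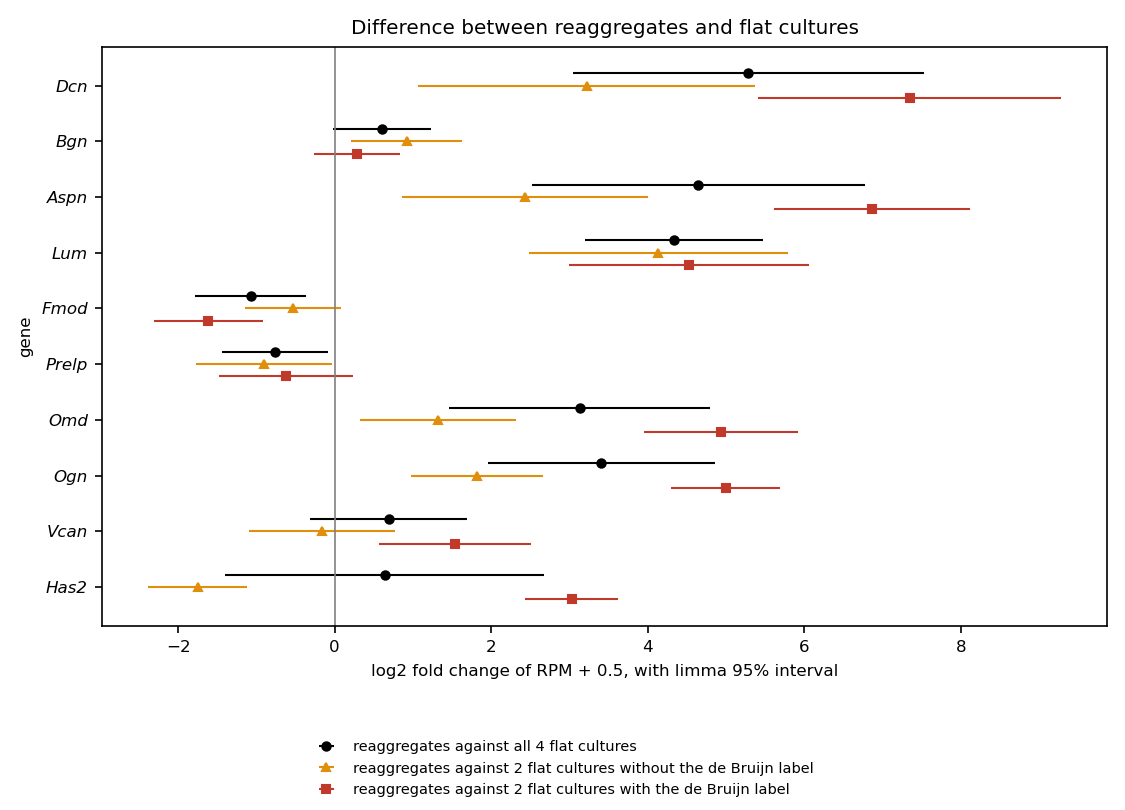
Log2 fold change of RPM + 0.5 (horizontal axis) for each gene (vertical axis) in 6 reaggregates against all 4 flat cultures (circles), the 2 without the de Bruijn label (triangles) and the 2 with it (squares), with limma 95% intervals as bars. *Lum* lies between 4.14 and 4.53 in all 3 comparisons, while *Has2* lies at −1.75 against the cultures without the label and at 3.03 against those with it.

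Decorin, biglycan and asporin form class I of the family. *Dcn* encodes decorin, a collagen-binding proteoglycan with a single glycosaminoglycan chain, which also binds TGF-β. Its expression in reaggregates 1 to 6 was 56.3, 47.3, 417, 478, 87.6 and 87.2 RPM, and in flat cultures 1 to 4 it was 7.48, 0.119, 22.8 and 0.486 RPM. Every reaggregate was above every flat culture, reaggregates 3 and 4 were far above the other 4, and the labelled flat cultures 2 and 4 were near the floor. Reaggregates averaged 196 ± 197 RPM (SD, n = 6) against 7.72 ± 10.6 RPM (SD, n = 4), with a log2 fold change of 5.28 (limma, SE 1.03, adjusted p = 0.00414). Against the unlabelled flat cultures alone it was 3.22 (adjusted p = 0.0479). Leaving out flat culture 2, 3 or 4 gave 4.48, 6.23 and 4.71, and with consecutive reaggregates averaged the adjusted p was 0.0554.

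*Bgn* encodes biglycan, the closest relative of decorin, which usually carries a pair of glycosaminoglycan chains. Its expression was 3920, 3850, 4100, 4050, 3620 and 3210 RPM in reaggregates 1 to 6, compared with 1320, 4010, 3010 and 2400 RPM in flat cultures 1 to 4. The reaggregates were alike, and the range of the flat cultures overlapped them because flat culture 2 lay within the range of the reaggregates. The log2 fold change was 0.60 (95% interval −0.03 to 1.23, limma adjusted p = 0.129).

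*Aspn* encodes asporin, which binds collagen and carries a run of aspartate residues in place of the glycosaminoglycan attachment sites of its relatives. The reaggregates gave 125, 122, 28.9, 30.4, 45.7 and 59.3 RPM, and the flat cultures 5.02, 0.000142, 20.6 and 0 RPM. Both labelled flat cultures were below the value of 1 read, and reaggregates 3 and 4, the highest for *Dcn*, were the lowest for *Aspn*. Means of 68.6 ± 44.0 RPM (SD, n = 6) and 6.41 ± 9.75 RPM (SD, n = 4) gave a log2 fold change of 4.65 (limma, SE 0.97, adjusted p = 0.00575), which was 4.12 with a pseudocount of 1 and 5.83 with 0.1. It was 2.43 against the unlabelled flat cultures (adjusted p = 0.0437) and 3.91, 5.71 and 3.91 without flat culture 2, 3 or 4. With consecutive reaggregates averaged the adjusted p was 0.0726.

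**Figure D2:**
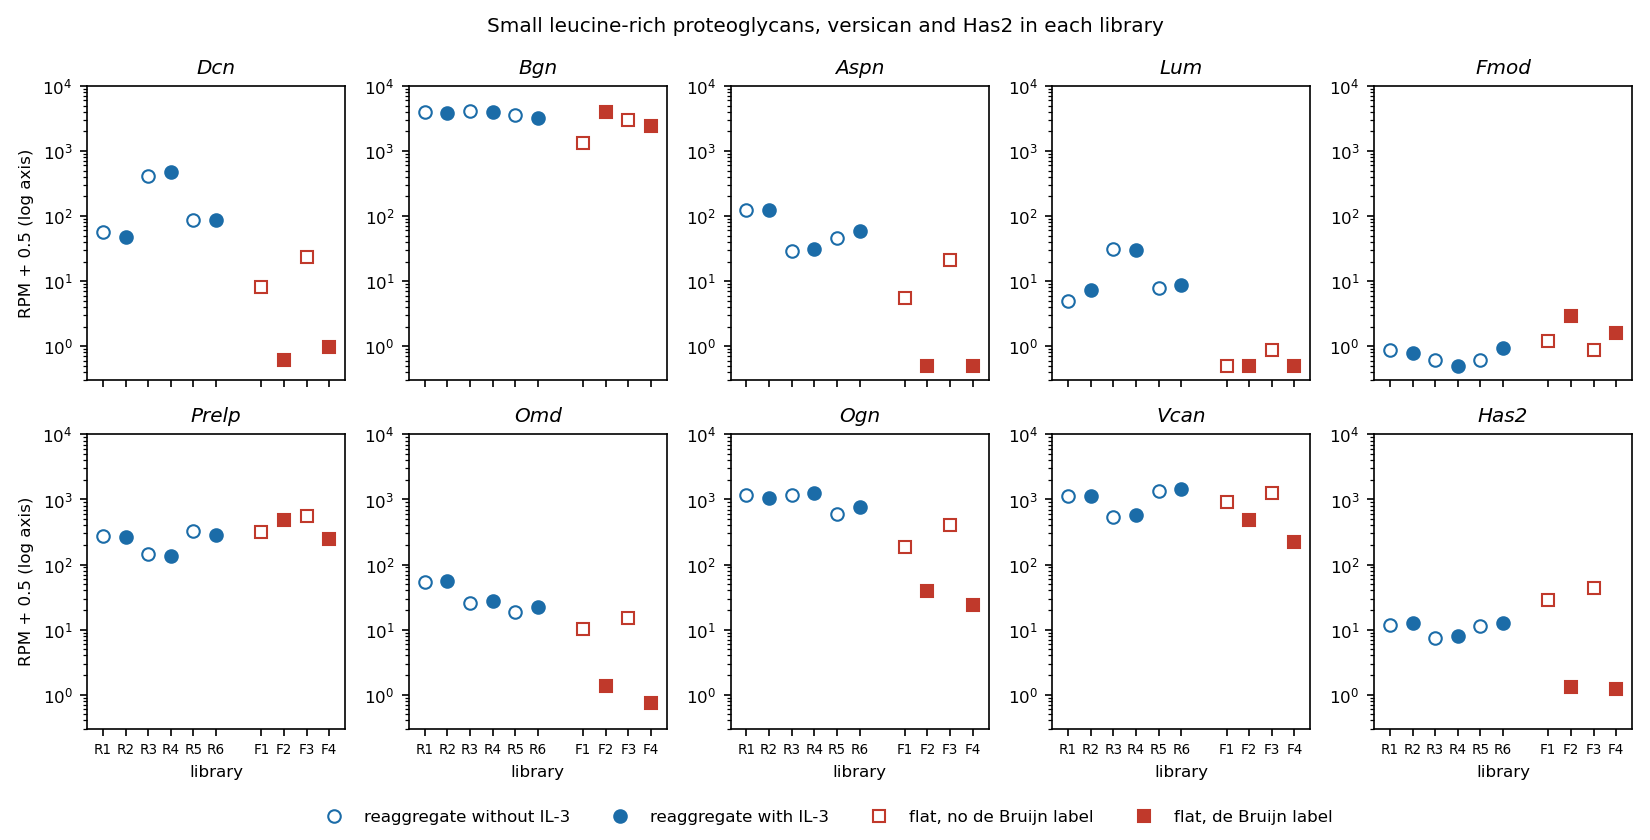
RPM + 0.5 on a log axis (vertical) for each gene in reaggregates 1 to 6 (R1 to R6, circles, filled with IL-3) and flat cultures 1 to 4 (F1 to F4, squares, filled with the de Bruijn label), 1 point per library. *Dcn*, *Aspn*, *Lum*, *Omd* and *Ogn* were higher in all 6 reaggregates than in any flat culture, and the filled squares are the lowest points for *Dcn*, *Aspn*, *Omd*, *Ogn*, *Vcan* and *Has2*.

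Lumican, fibromodulin, PRELP and osteomodulin belong to class II, whose members are typically keratan sulfate proteoglycans or related glycoproteins that bind collagen. *Lum* encodes lumican, best known from the cornea, where it is needed for transparency. Its expression was 4.49, 6.81, 30.2, 30.0, 7.38 and 8.18 RPM in reaggregates 1 to 6, and in the flat cultures it was listed at 0, 0, 0.359 and 0 RPM. Reaggregates 3 and 4 were again the highest, and no flat culture exceeded the floor of 3 reads. The log2 fold change was 4.33 (limma, SE 0.52, adjusted p = 0.000287), and it depends on the pseudocount, being 3.49 with 1 and 6.23 with 0.1. Estimated from RPM, 742 reads in the reaggregates stood against 3 in the flat cultures, all of them in flat culture 3.

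*Fmod* encodes fibromodulin, which binds type I collagen at a site it shares with lumican. It was low throughout, at 0.385, 0.272, 0.109, 0, 0.108 and 0.425 RPM in the reaggregates and at 0.691, 2.39, 0.359 and 1.09 RPM in the flat cultures. The groups overlapped, and in 5 of 6 reaggregates and in flat culture 3 the value was at or under 3 reads. Its log2 fold change of −1.07 (limma, SE 0.32, adjusted p = 0.0285) was no longer called without reaggregate 3 (−1.03), reaggregate 4 (−0.98), flat culture 2 (−0.75) or flat culture 4 (−1.04), nor with a pseudocount of 1 (−0.74) or with consecutive reaggregates averaged, while with a pseudocount of 0.1 it was −1.90 and still called. It was −0.53 and not called against the unlabelled flat cultures (limma adjusted p = 0.199).

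*Prelp* encodes a basic protein that binds both collagen and the heparan sulfate of perlecan. The reaggregates gave 277, 261, 145, 135, 328 and 282 RPM and the flat cultures 320, 490, 559 and 245 RPM. The ranges overlapped, with reaggregates 3 and 4 below all other libraries. The log2 fold change of −0.76 (95% interval −1.44 to −0.09) was not called (limma adjusted p = 0.0818).

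*Omd* encodes osteomodulin, also called osteoadherin, a protein of mineralized matrix that binds cells through integrin. Its expression was 52.5, 54.4, 24.9, 27.1, 17.9 and 21.9 RPM in reaggregates 1 to 6, compared with 9.64, 0.838, 14.4 and 0.252 RPM in flat cultures 1 to 4. All reaggregates were above all flat cultures, by little between reaggregate 5 and flat culture 3, and reaggregates 1 and 2 were the highest. Means of 33.1 ± 16.1 RPM (SD, n = 6) and 6.28 ± 6.91 RPM (SD, n = 4) gave a log2 fold change of 3.13 (limma, SE 0.76, adjusted p = 0.0117). Against the unlabelled flat cultures it was 1.32 and not called (adjusted p = 0.0683), and with consecutive reaggregates averaged the adjusted p was 0.104. Leaving out flat culture 1, 3 or 4 gave 3.64, 3.82 and 2.39.

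*Ogn*, of class III, encodes osteoglycin, also called mimecan, which can carry keratan sulfate and is found in bone, cornea and vessel walls. The reaggregates gave 1180, 1060, 1190, 1260, 588 and 755 RPM and the flat cultures 186, 38.6, 407 and 23.1 RPM. Reaggregates 1 to 4 were alike, reaggregates 5 and 6 were lower, and every reaggregate was above flat culture 3, the highest of its group. Reaggregates averaged 1006 ± 272 RPM (SD, n = 6) against 164 ± 178 RPM (SD, n = 4), with a log2 fold change of 3.41 (limma, SE 0.66, adjusted p = 0.00424). Against the unlabelled flat cultures it was 1.82 (adjusted p = 0.0127), without flat culture 3 or 4 it was 4.12 and 2.75, and with consecutive reaggregates averaged the adjusted p was 0.0652.

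*Vcan* encodes versican, a hyaluronan-binding chondroitin sulfate proteoglycan of provisional and embryonic matrix. Its expression was 1150, 1120, 537, 586, 1330 and 1430 RPM in reaggregates 1 to 6, compared with 925, 489, 1240 and 222 RPM in flat cultures 1 to 4. The groups overlapped: reaggregates 3 and 4 were below both unlabelled flat cultures, and the labelled flat cultures were below every reaggregate. The log2 fold change was 0.69 (95% interval −0.32 to 1.70, limma adjusted p = 0.266), made up of −0.16 against the unlabelled cultures (adjusted p = 0.810) and 1.54 against the labelled ones (adjusted p = 0.0160).

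*Has2* encodes the main hyaluronan synthase of embryonic mesenchyme, whose product versican binds. The reaggregates gave 11.1, 12.2, 7.01, 7.36, 10.8 and 11.9 RPM and the flat cultures 27.5, 0.813, 42.7 and 0.719 RPM. All reaggregates lay in the gap between the unlabelled flat cultures, which were higher than any reaggregate, and the labelled ones, which were lower than any. The pooled log2 fold change of 0.64 (95% interval −1.40 to 2.68, limma adjusted p = 0.618) therefore averages opposite differences, of −1.75 against the unlabelled cultures (95% interval −2.38 to −1.12, adjusted p = 0.00410) and of 3.03 against the labelled ones (95% interval 2.44 to 3.62, adjusted p = 2.34e-05). The pooled value turned negative without flat culture 2 (−0.14) or 4 (−0.17) and was 1.33 and 1.54 without flat culture 1 or 3. With consecutive reaggregates averaged, the adjusted p against the unlabelled cultures was 0.0542.

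Reaggregates 3 and 4 recurred at the ends of these ranges. They held the highest values of *Dcn*, *Lum* and *Bgn* and the lowest of *Aspn*, *Prelp*, *Vcan* and *Has2* among the 6 reaggregates. Their values of *Ogn* were also the highest, but by little over reaggregate 1 (1190 and 1260 against 1180 RPM). The reason for their separation was not tested. Taken over the 10 members, the summed share of reads on genes was 0.638% ± 0.0353 (SD, n = 6) in reaggregates and 0.401% ± 0.135 (SD, n = 4) in flat cultures, without overlap between the ranges of 0.587% to 0.678% and 0.280% to 0.532%. *Bgn*, which was not called, was the largest part of these sums in each library, at 1320 of 2801 RPM in flat culture 1. Without *Vcan* and *Has2*, it made up 67.4% to 89.9% of the sum of the 8 small leucine-rich proteoglycans in the 10 libraries.

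For comparison between genes, RPM was divided by the length of the merged exons in kb. In reaggregates (n = 6) the order of the means was *Bgn* (1064 ± 93.0 RPM per kb, SD), *Ogn* (396 ± 107), *Dcn* (101 ± 102), *Vcan* (70.9 ± 26.1), *Prelp* (65.8 ± 21.9), *Aspn* (29.2 ± 18.8), *Omd* (21.3 ± 10.3), *Lum* (6.99 ± 5.85), *Has2* (2.37 ± 0.540) and *Fmod* (0.0655 ± 0.0515). *Dcn*, *Vcan* and *Prelp* did not differ beyond their spread, the mean of *Dcn* resting on reaggregates 3 and 4 (215 and 247 RPM per kb) while in the other 4, at 24.4 to 45.2 RPM per kb, it was below both, and neither did *Aspn* and *Omd*. Single libraries departed from this order in other places too: *Dcn* was below *Aspn* and *Omd* in reaggregates 1 and 2, *Lum* was above *Aspn* in reaggregates 3 and 4, and *Has2* was above *Lum* in reaggregate 1. In flat cultures (n = 4) *Bgn* was again first at 754 ± 316 RPM per kb, and *Prelp* had the next mean at 112 ± 40.3, below *Ogn* in flat culture 3 (155 against 160). *Ogn* at 64.4 ± 70.1 and *Vcan* at 49.7 ± 31.3 did not differ beyond their spread, and in labelled cultures 2 and 4 *Ogn* (15.2 and 9.09) was below *Vcan* (33.8 and 15.3). The next 4, *Has2* at 4.23 ± 4.90, *Omd* at 4.04 ± 4.44, *Dcn* at 3.99 ± 5.48 and *Aspn* at 2.73 ± 4.16 RPM per kb, did not differ beyond their spread, and the means of *Fmod*, 0.343 ± 0.269, and *Lum*, 0.0433 ± 0.0865, were the lowest. In labelled cultures 2 and 4, however, *Fmod* (0.723 and 0.330) was above these 4 genes.

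Within the flat cultures, the 2 with the de Bruijn label were compared with the 2 without it. Expression of 5 members was lower with the label, beside 3.87% of tested genes. These were *Has2* (log2 difference −4.78), *Aspn* (−4.43), *Dcn* (−4.13), *Omd* (−3.62) and *Ogn* (−3.18), with limma adjusted p between 0.00716 and 0.0267. Without the filter all 5 calls were lost at the same differences (adjusted p 0.0547 to 0.187), and with a pseudocount of 1 *Aspn* was at −3.51 and *Dcn* at −3.46. *Vcan* was lower in both labelled cultures without being called (−1.70, adjusted p = 0.115), but was called lower with the spread taken from all 10 libraries (adjusted p = 0.0429) and with quantile normalization (−1.79, adjusted p = 0.0251). By limma 0 members were called higher, beside 1.82% of tested genes, although *Fmod* reached an unadjusted p of 0.0406 at a log2 difference of 1.08. The median log2 difference of the 10 members was −2.44, beside −0.17 for all tested genes. Without any 1 of the 4 cultures, which leaves 2 against 1, 0 genes were called, while the differences of the 5 called members lay between −5.40 and −2.62.

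IL-3 was compared within the reaggregates, 3 with and 3 without it. By limma 0 of 16933 genes were called, or 0.00%, and 68 had an unadjusted p no higher than 0.05, among them 0 members. For *Dcn* the log2 difference was −0.02 with a 95% interval from −2.60 to 2.56, and for *Has2* it was 0.11 with an interval from −0.58 to 0.80. With the consecutive pairs as a block, the difference of *Dcn* was −0.02 (limma, SE 0.09), and 564 genes had an unadjusted p no higher than 0.05, of which *Prelp* was the only member (log2 difference −0.14, unadjusted p = 0.0319, adjusted p = 0.982).

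The rule that chose the members did not use their position, and 7 of them lie in 3 clusters (NCBIM37 assembly). *Aspn* (chr13:49639812-49662926), *Omd* (chr13:49678135-49687978) and *Ogn* (chr13:49703440-49719869) follow each other on the plus strand with gaps of 15208 and 15461 bases. All 3 were called higher in reaggregates, and so was *Ecm2*, a related leucine-rich repeat protein just upstream, at 9.56 ± 2.91 RPM (SD, n = 6) against 2.20 ± 1.85 RPM (SD, n = 4; log2 fold change 2.16, limma adjusted p = 0.00569). The calls of the 3 members were lost with consecutive reaggregates averaged, and that of *Omd* also against the unlabelled flat cultures. *Cenpp*, a centromere protein gene that spans all 4 on the minus strand, shares no exon base with the 3 members and was not called (0.85, adjusted p = 0.132), but within the flat cultures it was called lower with the label (−1.87, limma adjusted p = 0.0499), as was *Ecm2* (−1.97). On both sides of the cluster, *Bicd2* at −0.53, *Ippk* at −0.32, *Tes3-ps* at −0.62, *Nol8* at −0.32 and *Iars* at −0.92 were not called either. *Iars* was lower at a limma adjusted p of 0.00194 but by less than 2-fold.

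*Dcn* (chr10:96942245-96980777) and *Lum* (chr10:97028135-97035337) are neighbours on the plus strand, 47357 bases apart. *Kera*, the keratocan gene that follows *Lum*, was also called higher, at 1.19 ± 0.621 RPM (SD, n = 6) against 0.0288 ± 0.0575 RPM (SD, n = 4), but all flat cultures were under the floor and it passed the filter only through the reaggregates, so that it could not have been tested without being higher in them. *Epyc*, next in the row, did not pass the filter, with at most 0.136 RPM. *Prelp* (chr1:135806881-135817991, minus strand) and *Fmod* (chr1:135933831-135944854, plus strand) lie with *Optc*, the opticin gene, which had a log2 fold change of −0.96 and was not called (limma adjusted p = 0.0941). Like *Fmod*, *Optc* passed the filter only through the flat cultures, and its value rests on the labelled ones (−1.88, against −0.04 for the unlabelled ones). *Bgn* (chrX:70728941-70741272, plus strand), *Vcan* (chr13:89794915-89882117, minus strand) and *Has2* (chr15:56497182-56526094, minus strand) stand apart from these clusters. An antisense gene, *Has2as*, shares 266 exon bases with *Has2* and had at most 0.559 RPM, *Gm15851*, not analysed here, shares 700 exon bases with *Prelp* on the other strand, and reads of the 2 strands cannot be told apart where counting did not use strand.

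**Figure D3:**
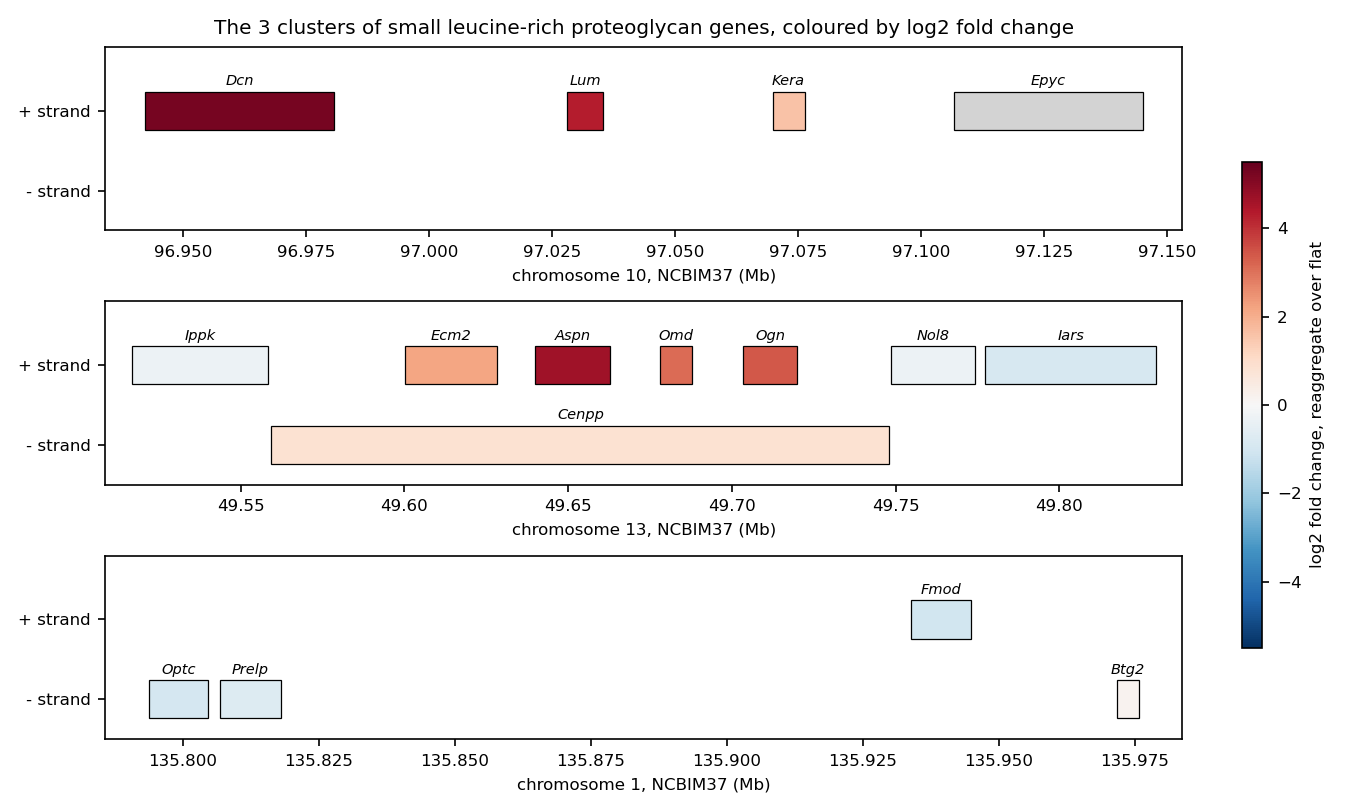
Genes of the 3 clusters along chromosomes 10, 13 and 1 (horizontal axis, in Mb of NCBIM37), drawn to scale on the plus or minus strand and coloured by log2 fold change of reaggregates over flat cultures, with genes that did not pass the filter in grey. *Dcn*, *Lum* and *Kera* and the run from *Ecm2* to *Ogn* lie between 1.60 and 5.28, while *Prelp*, *Fmod* and *Optc* lie between −1.07 and −0.76, of which *Fmod* and *Optc* passed the filter only through the flat cultures. *Lum* and *Kera* passed the filter only through the reaggregates. Not all genes in these ranges are drawn, and *Tes3-ps* on chromosome 13 is left out.

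*Aspn*, *Omd* and *Ogn* are adjacent and were called together against all 4 flat cultures, but not with consecutive reaggregates averaged. *Omd* was also not called against the unlabelled flat cultures. The 250 bases before the RefSeq gene starts of these 3 genes are shown, which for *Omd* and *Ogn* lie upstream of the gene starts given above. Promoter sequences of RefSeq (assembly GRCm38.p6) matched 7 of the 10 members, the missing ones being *Dcn*, *Lum* and *Has2*, and each of the 3 windows had 1 exact match in NCBIM37. The TATA box was searched as TATAAA, the AP-1 motif as TGANTCA, the RUNX motif as TGTGGT, the TEAD motif as GGAATG and the E-box as CANNTG, each on both strands. Matches were of letters alone, at any distance from the start, and whether any of them works as such an element was not tested. The sequences are written 5′ to 3′ on the plus strand from chr13:49639562-49639811, chr13:49677581-49677830 and chr13:49703134-49703383, and capitals mark every match other than the E-box.
Aspn: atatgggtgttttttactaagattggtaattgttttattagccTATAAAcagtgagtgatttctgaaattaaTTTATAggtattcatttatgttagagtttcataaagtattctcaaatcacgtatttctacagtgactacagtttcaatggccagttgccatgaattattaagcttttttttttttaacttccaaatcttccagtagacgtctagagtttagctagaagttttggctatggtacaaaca
Omd: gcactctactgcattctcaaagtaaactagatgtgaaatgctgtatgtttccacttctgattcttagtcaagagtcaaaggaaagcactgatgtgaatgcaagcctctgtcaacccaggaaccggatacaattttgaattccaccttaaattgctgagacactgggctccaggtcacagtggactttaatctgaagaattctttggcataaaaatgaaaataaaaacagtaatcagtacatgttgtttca
Ogn: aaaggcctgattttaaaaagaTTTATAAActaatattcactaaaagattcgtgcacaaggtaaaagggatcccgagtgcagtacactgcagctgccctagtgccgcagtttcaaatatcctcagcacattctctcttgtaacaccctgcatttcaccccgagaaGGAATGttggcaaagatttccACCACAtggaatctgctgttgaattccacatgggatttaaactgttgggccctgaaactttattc
The *Aspn* window held TATAAA 207 bases before the RefSeq start and its reverse complement 178 bases before it, and 1 E-box. In the *Ogn* window TATAAA at 227 bases overlapped its own reverse complement, GGAATG stood at 86 bases, the reverse complement of TGTGGT at 65 bases overlapped an E-box, and 2 further E-boxes were present. The *Omd* window held no match to any of these motifs. Among 32851 promoter windows of the same length, 12.4% held TATAAA, 6.75% TGANTCA, 14.0% TGTGGT, 12.6% GGAATG and 66.2% CANNTG on either strand.

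Genes that work with the members were taken from lists, and their medians stand beside 0.04 for all tested genes. Their counts of calls stand beside 7.32% of all tested genes called higher and 6.53% called lower. Against the unlabelled flat cultures these shares were 3.70% and 6.17%, and the median of all tested genes was −0.05. Of 8 tested other small leucine-rich proteoglycans and relatives, 2 were called, *Ecm2* and *Kera*, both higher, *Kera* with the limit given above (median log2 fold change 0.28), and the most abundant, *Tsku*, a secreted signalling modulator, was not (0.19). Of 4 tested other lecticans and hyaluronan link proteins, 0 were called by limma and 1 had an unadjusted p no higher than 0.05 (median 0.15), the most abundant being the link protein *Hapln4* (−0.16), and *Acan*, the aggrecan gene, was listed at 0 in all libraries. Among 9 genes of hyaluronan synthesis (median −0.26), *Ugdh*, whose enzyme makes the UDP-glucuronic acid that hyaluronan and sulfated chains are built from, was called lower, at 168 ± 12.1 RPM (SD, n = 6) against 399 ± 72.9 RPM (SD, n = 4; log2 fold change −1.23, limma adjusted p = 0.000258). Unlike *Has2*, *Ugdh* was lower than both kinds of flat culture, by −1.16 without the label and −1.31 with it. Among 16 tested genes of hyaluronan receptors, binding proteins and breakdown (median 0.51), the hyaluronidase *Hyal1* was called higher (1.71) and the receptor *Hmmr*, which also has a role in the mitotic spindle, lower (−2.56), while the main receptor and most abundant gene, *Cd44*, was not called (−0.31), and against the unlabelled flat cultures 1 was called higher and 2 lower.

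Of 21 tested enzymes of the glycosaminoglycan linker and of chondroitin or dermatan sulfate chains, 1 was called, the uronyl 2-O-sulfotransferase *Ust* (1.01, median of the list 0.14), and the most abundant, the chain polymerizing factor *Chpf*, was not (0.77, adjusted p = 0.0623). Over all tested genes 7.32% were called higher and 6.53% lower, and against the unlabelled flat cultures 3.70% and 6.17%. Of these enzymes 3 were called higher against the unlabelled flat cultures, *Chpf* included (1.24, limma adjusted p = 0.0168), and *Ust* was not (0.82). Of 5 tested enzymes of keratan sulfate, the sulfotransferase *Chst2* was called higher (1.16) and the sulfotransferase *Chst1* lower (−1.26), with a median of 0.30 and *B4galt1* the most abundant (0.30), and against the unlabelled flat cultures 0 were called higher and 1 lower. Of 18 tested other proteoglycan core proteins, 3 were called higher (median 0.59), with agrin, *Agrn*, at the largest increase (2.56) and syndecan-2, *Sdc2*, the most abundant (2.41), and against the unlabelled flat cultures *Agrn*, *Sdc2* and *Smoc1* were called higher while *Gpc6*, the third of the first comparison, was not (0.97). Of 5 tested proteases that cleave versican, 3 were called higher, among them *Adamts1*, the most abundant (2.26), and *Adamts5* was called lower (−1.67). Another of the 3, *Adamts15*, whose 1.16 is also the median of the list, passed the filter only through the reaggregates, so that it could not have been tested without being higher in them. Only 1 protease was called higher against the unlabelled flat cultures, and by limma 0 were called lower.

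Of the 9 genes of fibrillar collagens, the ligands of most of the small proteoglycans, 8 were called higher and 1 lower (median 2.13), whereas against the unlabelled flat cultures 4 were called higher and 1 lower (median 1.21). Over all tested genes 7.32% were called higher and 6.53% lower, and against the unlabelled flat cultures 3.70% and 6.17% (median −0.05). *Col3a1* was at 2525 ± 570 RPM (SD, n = 6) in reaggregates against 344 ± 436 RPM (SD, n = 4; log2 fold change 4.11, limma adjusted p = 0.00439), and like *Dcn* it was lower with the de Bruijn label, by −4.02. The most abundant, *Col1a2*, had a log2 fold change of 1.83, and *Col2a1* of cartilage collagen was the gene called lower (−2.06). Of 10 tested growth factors and receptors that decorin or biglycan bind, 3 were called higher and 1 lower (median 0.53), with *Egfr* at the largest increase (2.15), *Bmp4* the decrease (−2.19) and the endocytic receptor *Lrp1* the most abundant (0.92, not called), and against the unlabelled flat cultures 4 were called higher, *Lrp1* included (1.39), and 1 lower.

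Markers of cell types were examined beside these results. Their counts of calls stand beside 7.32% of all tested genes called higher and 6.53% called lower, or 3.70% and 6.17% against the unlabelled flat cultures. Of 8 tested markers of mesenchymal stroma 5 were called higher. The whole list, uncalled markers included, summed to between 20879 and 29261 RPM in reaggregates and between 11763 and 19818 RPM in flat cultures. *Col1a2* was the most abundant. The 5 include *Col1a1*, *Col1a2* and *Col3a1* of the collagens above, and all but *Col1a2* were also called higher against the unlabelled flat cultures. Of the others, *Vim* was below every flat culture in every reaggregate (−0.54, not called), and *Mcam* (−0.40) and *Cxcl12* (−0.09) were not called, *Cxcl12* being at 125, 4560, 662 and 3990 RPM in flat cultures 1 to 4. All 8 markers of cycling cells were called lower, and their sum was 1614, 542, 1376 and 687 RPM in flat cultures 1 to 4 but 183 to 291 RPM across the reaggregates, with *Top2a* the most abundant. Like *Has2*, this sum was higher in the unlabelled than in the labelled flat cultures. Of 6 smooth muscle and pericyte markers, 5 were tested and *Cnn1* was called lower, and their sum was 192, 2657, 371 and 2750 RPM in flat cultures 1 to 4 and between 86.0 and 458 RPM in reaggregates, with *Acta2* the most abundant. The 6 adipocyte markers, of which *Pparg*, *Cebpa* and *Fabp4* were called lower, summed to 370, 1385, 528 and 1457 RPM in flat cultures 1 to 4 and to between 255 and 691 RPM in reaggregates, with *Lpl* the most abundant. By limma 0 markers of these 2 lists were called against the unlabelled flat cultures. These 2 sums were highest in the labelled flat cultures, in which *Dcn*, *Aspn*, *Omd*, *Ogn*, *Vcan* and *Has2* were lowest, and their part in the differences was not tested.

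The 6 osteoblast markers summed to between 1459 and 5462 RPM in reaggregates and between 3359 and 13843 RPM in flat cultures, mostly from *Spp1*, and by limma 0 were called, with 2 at an unadjusted p no higher than 0.05. Of 3 tested chondrocyte markers, *Sox9* was called higher (1.56) and *Col2a1*, the most abundant, lower, and the sums were between 396 and 495 RPM in reaggregates and between 833 and 1624 RPM in flat cultures. Endothelial markers summed to at most 1.23 RPM in any library, with *Pecam1* the most abundant. Blood markers summed to at most 9.38 RPM, mostly from *Cd68*, and *Ptprc*, *Adgre1* and *Cd3e* were listed at 0 in all libraries.

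For the 9 members with a mean of at least 5 RPM, the genes of most similar pattern were sought by Pearson's r of log2(RPM + 0.5) over the 10 libraries among 11660 genes, and these r describe libraries that share their groups, labels and consecutive pairs. *Ogn* was closest to *Cdh11* (0.995), *Htra3* (0.995) and *C1s* (0.994), and *Aspn* to *Svil*, *4933416E03Rik* and *Abca2* (0.997 to 0.992). *Omd* was closest to *BC002230*, *Bbs2* and *Thra* (0.988 to 0.984), *Dcn* to *Maml3*, *Tead2* and *Sept6* (0.977 each), and *Lum* to *Cybasc3*, *Zkscan1* and *Cmtm3* (0.990 to 0.982). *Bgn* was closest to *Ccdc97*, *Pskh1* and *Phf8* (0.994 to 0.979) and *Prelp* to *Arhgdia*, *Chst12* and *Slfn2* (0.976 to 0.965). For *Vcan* they were *Pcdh1*, *Ankfy1* and *Ube2z* (0.986 to 0.975), and for *Has2* *Pcyt1b*, *Fam126a* and *Mpp2* (0.991 to 0.983). *Chst12* of the chondroitin sulfate enzymes was the only one of these genes that was also on a list above.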

How the data were processed

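The authors aligned reads to NCBIM37/mm9 with TopHat 1.2.0 and Bowtie, counted them per Ensembl gene with GeneProf (reads with several positions were divided), and deposited RPM per gene and library. Whether counting used strand was not given in the sources used here. Because reads were divided, between 61.5% and 64.7% of values up to 10 reads were whole multiples of 1 read (within 0.05 reads), and no count test was run. The deposited columns of the authors' own comparison, a log2 fold change and an adjusted p-value from DESeq, were not used. Every value column matched 1 library.

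Groups came from the sample labels. Values were compared as log2(RPM + 0.5) with limma 3.58.1 in R 4.3.3 (linear model, empirical Bayes with a mean-variance trend, no covariate), which was tested on simulated data. Genes above 0.5 RPM in at least 1 library were adjusted together. Coordinates and exon lengths came from GENCODE of the same assembly, a later release than the authors used, in which 25693 of 26888 genes were found. The members and lists were chosen with earlier results of these data known. The text names all members, from each list the called genes of largest increase and decrease and the most abundant gene, and for each member of at least 5 RPM the 3 genes of most similar pattern. *Kera*, *Optc*, *Epyc*, *Cenpp*, *Has2as*, *Gm15851*, *Adamts15*, *Smoc1*, *Gpc6*, *Bicd2*, *Ippk*, *Tes3-ps*, *Nol8*, *Iars* and *Acan* were named for their position, family, calls or passing of the filter, and *Vim*, *Mcam*, *Cxcl12*, *Pparg*, *Cebpa*, *Ptprc*, *Adgre1* and *Cd3e* as marker genes, after their values were seen. Alternatives covered the pseudocount, filter, scaling, trend, reaggregates with or without IL-3, consecutive reaggregates averaged, kinds of flat culture, a replicate block and single libraries left out. Chst13, B3gnt7 and Chst4 of the lists were not analysed here, and of 8 listed blood markers 7 were found.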

Additional observations from a re-analysis of the deposited data

Results flagged for a closer look

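Each member was examined for a library far from the others of its group, in 20 groups of 4 or 6 libraries, where chance flags about 1. *Lum* in flat culture 3, at 0.359 RPM where the other flat cultures were listed at 0, was the only such value. It corresponds to about 3 reads, the floor. With all other flat cultures at 0, any value above 0 would have been flagged, so that this flag was fixed in advance.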

How the results depend on the processing

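*Dcn*, *Aspn*, *Omd* and *Ogn* were also called higher with each single library left out. *Lum* passed the filter only through the reaggregates, so its calls are not counted as stability. With consecutive reaggregates averaged, 312 genes were called higher and 429 lower, with 1 member (*Lum*) higher and 0 lower. With IL-3 reaggregates only these counts were 277 and 360, with 1 and 0 members, and with reaggregates without IL-3 they were 345 and 474, with 2 and 0 members, where fewer samples entered the fit. Against flat cultures with the de Bruijn label 2579 genes were higher and 1775 lower, and against those without it 627 were higher, with *Vcan* at −0.16 and *Has2* at −1.75. In an alternative added after seeing the data, with consecutive reaggregates averaged and only the unlabelled flat cultures, 121 genes were higher and 399 lower, with 1 (*Lum*) and 0 members, *Vcan* at −0.16 and *Has2* at −1.75. With the label as a term of the model, also added after seeing the data, no count moved by over 1.5 times. The member called lower, *Fmod*, was lost (0 members) with a pseudocount of 1 and without a filter. With at least 1 RPM in 4 libraries it was not tested, which also left 0 members lower. The cause of the other changes was not tested.

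Single libraries left out gave 766 to 2121 genes higher, 815 to 1522 lower, 0 to 1 members lower and −0.17 to 1.54 for *Has2*. By the labels, the reaggregates and flat cultures share only a replicate number. For deviations from group means, r was −0.21 to 0.15 between same-numbered libraries and −0.27 to 0.38 between differently numbered ones. With so few libraries these r cannot show whether same-numbered ones share anything else. With the number as a replicate block, in a fit of libraries 1 to 4 of each group that left out reaggregates 5 and 6, 1884 genes were called higher, and the effect of the block alone was not tested.

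For the label within flat cultures, the spread of all 10 libraries gave 726 genes higher and 1622 lower, with 6 members (*Vcan* added) lower. No filter gave 70 and 134, with 0 members lower, and quantile normalization gave 791 higher, with the same 6 members lower. Each single culture left out, which leaves 2 against 1, gave 0 higher, 0 lower and 0 members lower, where the lone culture was assumed to vary like the others, and *Prelp* ranged from −0.79 to 0.21. Depth limits *Fmod* in reaggregates, and *Lum* in flat cultures, to a few reads. In flat cultures 2 and 4, *Fmod* had about 20 and 9 reads.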
